A study of Sus scrofa with 18 samples.

Results

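FOS, EGR1, DUSP1 and CEBPD are genes of the immediate early and acute stress response, and their levels were read in the retinas of 18 piglets. They were chosen by their measured values in these same retinas, where they differed widely from one animal to the next, so their range and their co-variation are given here as a description, without a test. All probe sets with 1 gene symbol that is one of the 4 names were taken, which gave 8 probe sets, and the brightest per gene was used as its value. These are 4 of the 5710 named genes tested, and 4 of the 8 probe sets passed the filter on low values.

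Immediate early genes are transcribed within minutes of a stimulus from factors that already sit in the cell, without new protein synthesis, and their messages are short lived. Calcium entry, growth factor receptors and MAP kinases switch them on through the transcription factors SRF and CREB, and in neurons they follow electrical activity. In the retina they are known to respond to light, to handling and injury of the tissue, and to growth factors acting on Mueller glia, the radial support cells of the retina. FOS is a subunit of the transcription factor AP-1, EGR1 is a zinc finger transcription factor, DUSP1 is a phosphatase that switches MAP kinases off, and CEBPD is a transcription factor of the acute phase and inflammatory response.

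The study asked how dietary sialyllactose, an oligosaccharide of milk in which sialic acid is linked to lactose, bears on the developing retina. All animals were male domestic pigs, a cross of Landrace x Large White, obtained at 3 days of age and assigned to their group at random, and all retinas were taken at postnatal day 38. The control group (9 piglets) received pig milk replacer at the basal level, and the sialyllactose group (9 piglets) received milk replacer with a sialyllactose supplement. Total RNA of each retina was hybridised to 1 Affymetrix pig array. The labels give a fixed light and dark cycle, but the hour of collection and the time from death to freezing are not given in the sources used here, and neither are litter and array batch.

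The values are deposited log2 values from RMA, in which a step of 1 is a doubling. They say how 1 probe set differs between retinas, and levels of different genes cannot be set against each other. Correlations between pairs of arrays lay between 0.981 and 0.992, and control replicate 2 had the lowest mean correlation with the others. Photoreceptor and glial markers were bright in every retina, with SAG, the rod arrestin, at 10.25 to 10.81 and GLUL, the glutamine synthetase of Mueller glia, at 10.13 to 10.97. TTR, which is abundant in pigment epithelium, ranged from 4.54 to 8.32, and HBB, the beta globin of red blood cells, from 5.57 to 6.06.

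FOS had one of the widest spreads between retinas among the 5710 named genes tested. In the control group the lowest retina was measured at 2.51, the median was 3.49 and the highest was 5.74 (mean 3.67 ± 1.05, SD, n = 9). In the sialyllactose group the corresponding values were 2.48, 3.72 and 5.13 (mean 3.73 ± 0.72, SD, n = 9). Control replicate 3 was highest, sialyllactose replicate 3 next and control replicate 2 after it, and the groups overlapped over nearly their whole range. The highest and the lowest retina were 9.54-fold apart. The SD within diets was 0.90, which placed FOS 15th of 5710 genes, where the median gene had an SD of 0.14.

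EGR1 spread as widely as FOS but over partly other retinas. Its values ran from 2.00 through a median of 3.47 to 4.58 in the control group (mean 3.34 ± 0.86, SD, n = 9) and from 2.10 through 3.37 to 4.89 in the sialyllactose group (mean 3.36 ± 0.95, SD, n = 9). Sialyllactose replicate 9 was highest, followed by control replicate 9 and sialyllactose replicate 8, and control replicate 3, in rank 4, was at 4.20. Control replicate 7, sialyllactose replicate 6 and sialyllactose replicate 1 were lowest, so both diets held retinas at both ends. The ends were 7.42-fold apart, and the SD of 0.91 placed EGR1 14th of 5710 genes.

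Both of the dimmer EGR1 probe sets, which lay under the filter, gave much the same order of retinas. Against the brightest probe set, the deviations from the diet mean correlated at r = 0.85 (rho 0.87) for the next brightest and at r = 0.72 (rho 0.71) for the dimmest over 18 retinas. The next brightest ran from 0.53 in control replicate 7 to 2.14 in sialyllactose replicate 9, the same lowest and highest retina as the brightest probe set. FOS and DUSP1 had 1 probe set each, so no such comparison was possible for them.

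DUSP1 varied far less, apart from 2 retinas. The control values ran from 5.50 through a median of 5.65 to 6.26 (mean 5.69 ± 0.22, SD, n = 9), and the sialyllactose values from 5.29 through 5.51 to 5.93 (mean 5.57 ± 0.18, SD, n = 9). Control replicate 3 was highest and sialyllactose replicate 3 second, as for FOS, while the other 8 control retinas lay between 5.50 and 5.71. The range was 1.96-fold. The SD was 0.20, which ranked 1076th of 5710 genes, and it was 0.14, equal to the median of all genes, without control replicate 3.

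CEBPD was dim, and its range rested on 1 retina. In the control group it ran from 1.62 through a median of 2.17 to 3.45 (mean 2.21 ± 0.53, SD, n = 9), and in the sialyllactose group from 1.46 through 1.90 to 2.32 (mean 1.86 ± 0.28, SD, n = 9). Control replicate 3 had the value of 3.45, and no other of the 18 retinas was above 2.40. Its lowest values lay near the filter level of 1.48, so no fold is given for its range. The SD was 0.43 (105th of 5710 genes), with an SD of 0.29 when that retina was left out.

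The other CEBPD probe sets, both under the filter, gave a mixed picture. The next brightest followed the brightest at r = 0.74 over 18 retinas (rho 0.51), and was also highest in control replicate 3, at 1.59. In the sialyllactose group alone this r was 0.26 (n = 9). The dimmest had r = -0.19 with the brightest, and in the control group it was lowest, at 0.82, in control replicate 3.

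**Figure D1:**
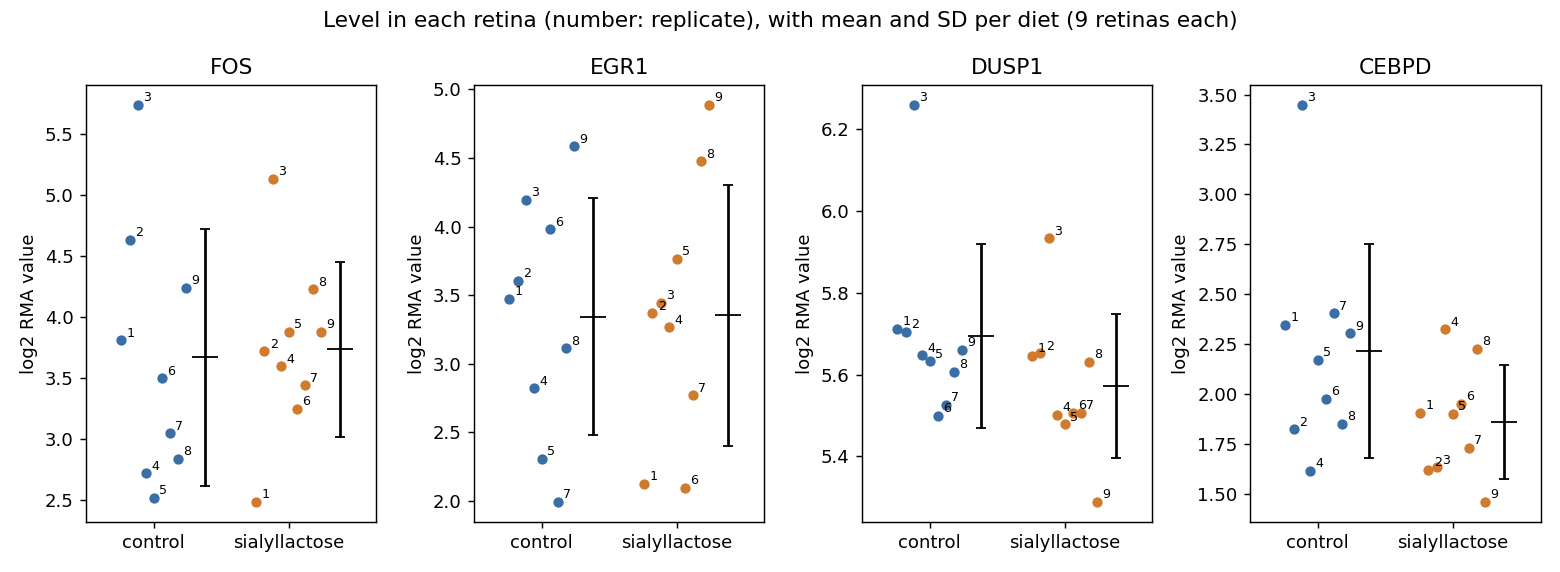
Log2 RMA value (vertical axis) of FOS, EGR1, DUSP1 and CEBPD in each of 9 control and 9 sialyllactose retinas; the number is the replicate and the bar is the mean with its SD. Control replicate 3 is the highest retina for FOS (5.74), DUSP1 (6.26) and CEBPD (3.45) but not for EGR1, where sialyllactose replicate 9 is highest (4.89).

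FOS and EGR1 correlated in both diets, although their highest retinas differed. Over deviations from the diet mean in 18 retinas their Pearson r was 0.66 and Spearman's rho 0.78. It was 0.73 in the control group and 0.60 in the sialyllactose group (n = 9 each), 0.66 without control replicate 3, and 0.75 without the 2 retinas farthest from the FOS median (control replicate 3 and sialyllactose replicate 3). Among 5709 genes EGR1 ranked 24th for FOS, and FOS ranked 11th for EGR1. All correlations given here compare genes measured on the same arrays, so the points share RNA sample, array and normalization.

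FOS and DUSP1 had a similar r of 0.67 over 18 retinas, but it rested on the 2 retinas in which both were highest. Spearman's rho was 0.36, r was 0.40 without control replicate 3, and r was 0.06 without control replicate 3 and sialyllactose replicate 3. Within diets r was 0.79 in the control group and 0.44 in the sialyllactose group (n = 9 each). The pair thus differed from FOS and EGR1 in how much single retinas carried the value.

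CEBPD correlated with DUSP1 and FOS when control replicate 3 was included. With DUSP1 its r was 0.56 over 18 retinas (rho 0.23) and -0.02 without that retina. With FOS r was 0.45 (rho 0.18) and -0.03 without it. In the sialyllactose group, which does not hold that retina, r was 0.01 with DUSP1 and -0.19 with FOS (n = 9).

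EGR1 had little relation to DUSP1 or CEBPD. Over 18 retinas r was 0.11 with DUSP1 (rho 0.07) and 0.12 with CEBPD (rho -0.04), and without control replicate 3 both turned slightly negative, to -0.12 and -0.11. Of the 6 pairs, FOS with EGR1 was the one with r above 0.5 in both diets.

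**Figure D2:**
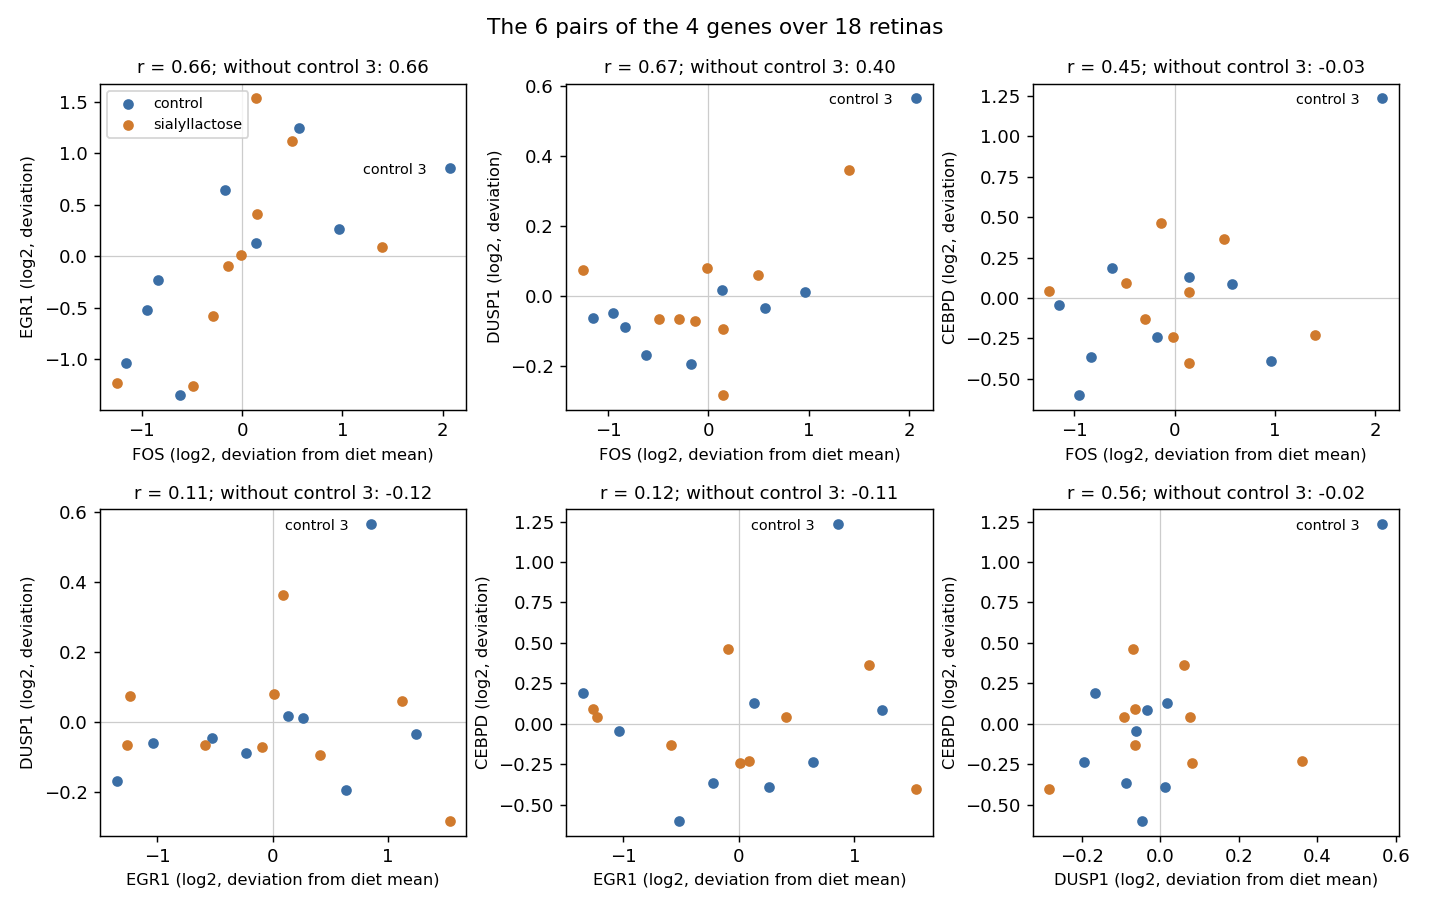
Each panel sets 1 gene against another over 18 retinas, both axes as log2 deviations from the mean of the diet; blue points are control and orange points sialyllactose retinas. The cloud of FOS and EGR1 is drawn out over all retinas (r = 0.66 with and without control replicate 3), while DUSP1 with CEBPD drops from 0.56 to -0.02 without it.

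Control replicate 3 was high in 3 of the 4 members, but not in an unusual number of genes. It was the highest of the 18 retinas in 256 of 5710 genes (4.48%), where the other retinas ranged from 169 to 1015. By the difference from the mean of the other 8 control retinas, FOS ranked 1st of all genes at 2.33, CEBPD 7th at 1.39, EGR1 23rd at 0.96 and DUSP1 49th at 0.64. The genes placed among them, picked out here after their values were seen, included ISG15, USP18 and GBP1, which interferon induces, and C1QC and FCGR3A, a complement subunit and an antibody receptor of myeloid cells. ISG15 was 6.47 in this retina but reached 8.02 in another, whereas C1QC was 3.27 against at most 2.18 and FCGR3A 2.99 against at most 2.13 in the other 17. CYR61, a secreted matrix protein induced as an early gene, STAT3, the transcription factor that relays interleukin signals to acute phase genes, and CRYAB, a small heat shock protein, were also highest there, at 2.54, 5.72 and 7.24.

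The mean of a list of microglia and other immune cell markers correlated with the members, and less so without control replicate 3. Of 16 genes in that list 11 were on the array and 6 passed the filter. The member score is the mean over the 4 genes of their deviations from the diet mean in units of each gene's SD. All 6 had a positive r with this score, against 2589 of all 5706 genes. The median r of the 6 was 0.48, and 0.15 without control replicate 3. Their mean correlated with the score at r = 0.75 over 18 retinas (rho 0.61), at 0.87 in the control group and 0.33 in the sialyllactose group (n = 9 each), and at 0.40 without control replicate 3. Their summed level, as a log2 value, was 5.04 to 5.87 in the control group and 5.001 to 5.49 in the sialyllactose group, and control replicate 3 was highest.

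The defining markers C1QA, ITGAM, TYROBP, PTPRC and CD74 lay under the filter, with means of 0.79 (PTPRC) to 1.47 (C1QA). AIF1, a microglial calcium-binding protein, was the immune marker that kept its relation to the score without control replicate 3 (r = 0.65 and 0.61). With FOS its r was 0.75 (0.70 without that retina). AIF1 values ran from 1.14 to 2.32, and the lowest lay under the filter level. Without control replicate 3, the other tested markers of immune cells had r with the score from -0.14 (CTSS) to 0.36 (C1QC). The part of such cells in the members' levels was not tested, and in whole retina more cells of a type and more RNA per cell cannot be told apart.

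Markers of other cells and measures of RNA quality were read in the same way. The mean of 8 pigment epithelium markers had r = -0.42 with the score (-0.11 without control replicate 3), and the mean of 11 Mueller glia markers -0.16 (0.18, with the sign turned). The mean of 10 astrocyte and reactive glia genes had 0.50 (0.36), and with FOS alone it had 0.67, against 0.59 for the immune genes. CRYBB1, the one lens marker tested, had 0.35 (0.51), and its lowest value, 1.23, lay under the filter level. HBB had r = -0.37 (-0.36 without control replicate 3). The difference between the probe sets at the 3' and 5' ends of a transcript, which widens as RNA degrades, correlated with the score at 0.18 for actin, 0.23 for GAPDH and 0.14 for EF1A. That difference was highest of all retinas in sialyllactose replicate 3, the retina with the second highest FOS and DUSP1, and ranked 13th, 7th and 15th in control replicate 3; its part in the members' levels was not tested.

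For each member, the genes most like it were those with the highest value of the lower of the r in both diets. For FOS these were ARPC1B, SMS, UPK2, IER2 and DDB2. IER2, itself an immediate early transcription regulator, had r = 0.85 in the control and 0.71 in the sialyllactose group (n = 9 each), 0.80 over 18 retinas (rho 0.73) and 0.77 without control replicate 3. SMS, the spermine synthase, had r = 0.77 (rho 0.79) and 0.74 without that retina. ARPC1B is an actin-nucleation subunit and DDB2 a DNA damage sensor, with r = 0.73 and 0.78.

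The genes that ran most against FOS were LOC100520582, CLTA and ARNTL. ARNTL, also called BMAL1, is the core activator of the circadian clock. Its r with FOS was -0.74 in the control and -0.88 in the sialyllactose group, and over 18 retinas it was -0.78 with a rho of -0.92. ARNTL spanned 5.46 to 6.08, so its range was small beside that of FOS, and its lowest value was in control replicate 2. CLTA, a clathrin light chain, had r = -0.83, but its 2 other tested probe sets had r of 0.30 and 0.17 with FOS.

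For EGR1 the most similar genes were SMS, NPEPL1, NR0B1, UPK2 and ZNF329. SMS had r = 0.80 in the control and 0.82 in the sialyllactose group, and 0.81 over 18 retinas (rho 0.80). ABHD10, a mitochondrial thioesterase, ran opposite at r = -0.93 and -0.80, with -0.84 over 18 retinas. MRAP2, an accessory protein of melanocortin receptors, and CFL2, an actin-severing cofilin, followed at -0.79 and -0.78. Without control replicate 3, r with EGR1 was 0.80 for SMS, -0.84 for ABHD10, -0.78 for MRAP2 and -0.77 for CFL2.

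**Figure D3:**
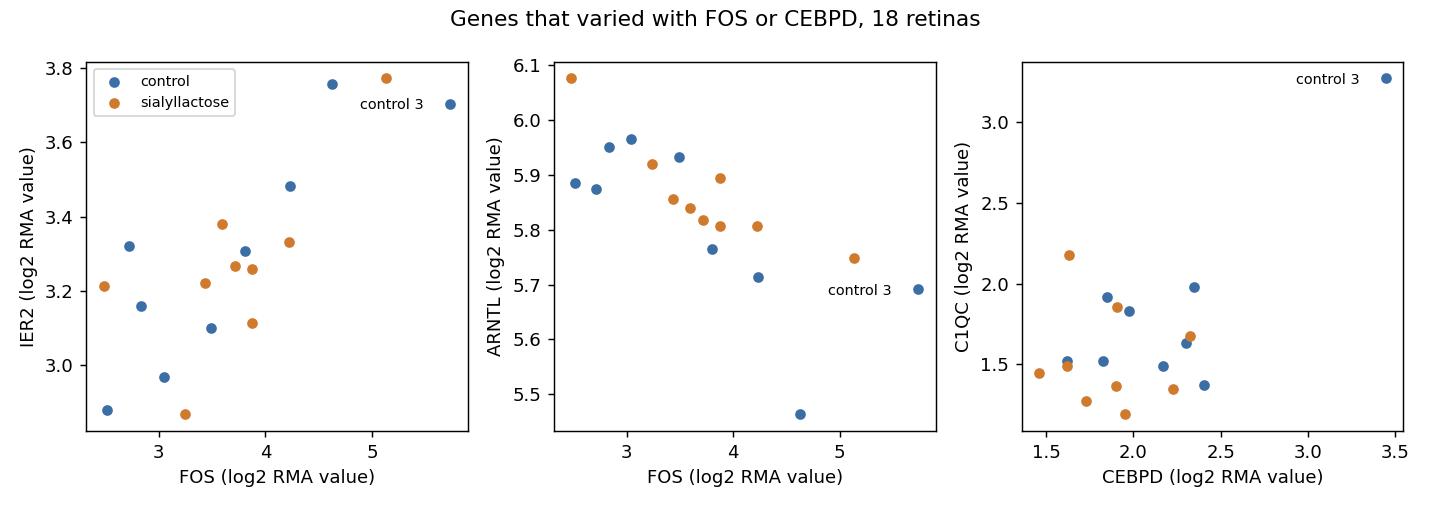
Each point is 1 of 18 retinas, with log2 RMA values on both axes; blue is control and orange sialyllactose. IER2 climbs with FOS (r = 0.80) and ARNTL declines with it (r = -0.78) over the whole range, while C1QC against CEBPD is set apart by control replicate 3 at 3.27 and 3.45.

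Several partners of DUSP1 and CEBPD had a lower r without control replicate 3. For DUSP1 the most similar genes were ACOT8, C1QC, MAPK13, RBM6 and IER2. C1QC had r = 0.83 but a rho of 0.40 and r = 0.57 without that retina, RBM6, an RNA-binding splicing factor, went from 0.64 to 0.31, and ACOT8, a peroxisomal thioesterase, stayed at 0.72. MAPK13, a p38 MAP kinase, had r = 0.73 (rho 0.54) and 0.61 without it. BAD, which promotes apoptosis, was among the most negative at r = -0.78 and -0.67 without it, with GPR160 and PNP.

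For CEBPD the most similar genes were RAB11B, JAK3, CLN6, CMBL and FCGR3A, with r over 18 retinas of 0.58 to 0.70. JAK3, a kinase of cytokine receptors in lymphoid cells, had r = 0.59 and 0.58 without control replicate 3, while FCGR3A went from 0.70 to 0.35. CAV2, a caveolar coat protein, was most negative at r = -0.75 and -0.56 without it. A 2nd tested probe set of CAV2 gave r = -0.71, whereas that of FCGR3A gave 0.09.

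Lists of partners were compared between the members. Of the 100 genes most like each, by the lower of the r in both diets, FOS and EGR1 had 23 in common and FOS and DUSP1 had 19. The other pairs shared 1 to 3. The number that unrelated lists of this size would share was not computed, nor were the counts without control replicate 3. Members that correlate with each other, as FOS did with EGR1 and DUSP1, share partners for that reason. None of these counts, high or low, is therefore read as a result of its own. Partners picked in 1 diet had low correlations in the other, and single retinas moved these medians. For FOS the 50 genes with the highest r in the control group had a median r of 0.15 in the sialyllactose group, and 0.13 the other way, where the medians of all genes were -0.02. For EGR1 these medians were 0.21 and 0.10 (all genes -0.02 and -0.06), for DUSP1 0.05 and -0.07, and for CEBPD 0.00 and -0.04. The first FOS median was -0.014 without control replicate 3, and with 1 retina left out the other ran from 0.056 to 0.22. For EGR1 the first was 0.072 without control replicate 9, and the other was -0.10 without sialyllactose replicate 9.

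For the score over all 4 genes, 105 of 5706 other genes (1.84%) had r of at least 0.5 and 205 (3.59%) had r of at most -0.5. The share that unrelated genes would reach was not computed, so these counts are not read as a result. The 50 genes with the highest r with the score in the control group had a median r of 0.10 in the sialyllactose group. The other way it was -0.06, where the medians of all genes were -0.03 and -0.04. The genes most like the score in both diets, picked by these same r, were COL17A1, UPK2, RBM6, IER2, AMBN, SMS, TRIP10, FCER1G, AIF1, SLC9A3, SCAMP4 and NPEPL1. COL17A1, a transmembrane collagen, had r = 0.76 (rho 0.88) and 0.89 without control replicate 3, within a narrow range of 2.54 to 2.94. IER2 had r = 0.71 and 0.68 without it, and TRIP10, an adaptor of the actin skeleton, 0.77 and 0.79. AMBN and FCER1G went from 0.71 and 0.65 to 0.29 and 0.26. Among the partners named for the members or the score, some had their lowest value under the filter level of 1.48. These were TRIP10 (1.44), AMBN (1.40), SLC9A3 (1.31), FCGR3A (1.27), MRAP2 (1.25), CMBL (1.23), C1QC (1.19) and AIF1 (1.14).

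The most negative genes were PLPP2, ZKSCAN5, INHBA, UNC50, PNP, SNRPC, USP16 and UBE2N. PLPP2, a lipid phosphate phosphatase, had r = -0.95 in the control and -0.77 in the sialyllactose group, and -0.76 over 17 retinas without control replicate 3. INHBA, the activin A subunit, had r = -0.69 and -0.53. Other tested probe sets of the genes named as partners often had a much smaller r than the brightest. With the member that named the gene, DDB2 had 0.13 and 0.43 against 0.78, CFL2 -0.09 against -0.78, RAB11B 0.06 against 0.69 and CLN6 0.05 and 0.25 against 0.60.

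Among other immediate early transcription factors, some but not all followed the members. Of 28 in the list, 16 were on the array and 12 passed the filter. Their median r with the score was 0.31 (0.29 without control replicate 3), where that of all genes was -0.03. Against 2589 of all 5706 genes, 8 of the 12 were positive. IER2 was among them. ATF3, a stress-induced factor, had 0.50 (0.33 without control replicate 3), with 0.68 in the control and -0.12 in the sialyllactose group. Its values ran from 1.42 to 2.01, and the lowest lay under the filter level. KLF2 had 0.48 (0.43 without control replicate 3), with 0.59 in the control and 0.55 in the sialyllactose group. JUN, the usual partner of FOS in AP-1, had 0.36 over 18 retinas and 0.61 without control replicate 3, a retina in which it ranked 8th. NR4A2, an orphan receptor of early response, had -0.37. FOSL2, EGR4, MYC and KLF4 lay under the filter.

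Early effectors leaned the same way, with r above 0 for 13 of 14 tested genes, against 2589 of all 5706 genes, and a median of 0.24. CYR61 had r = 0.78, which was 0.39 without control replicate 3, and its lowest value, 1.27, lay under the filter level. PER1, a light- and CREB-induced clock gene, had 0.53 (0.38), with 0.69 in the control and 0.077 in the sialyllactose group. BTG2, an antiproliferative early gene, had 0.51 (0.50), with 0.66 and 0.44 in these groups. SGK1, a kinase induced by serum and glucocorticoid, had 0.42 (0.49), with 0.23 in the control and 0.84 in the sialyllactose group. Among the 26 genes of both lists JUN, KLF10, IER2, BTG2 and SGK1 were highest in sialyllactose replicate 3, and CYR61 in control replicate 3. Over all 5710 genes these retinas were highest in 4.54% and 4.48%.

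The other MAP kinase phosphatases had an r below 0 with DUSP1. Of 4 tested, DUSP6 and DUSP7 had r of -0.07 each with DUSP1, DUSP9 had -0.31 and DUSP14 -0.53 (-0.14 without control replicate 3). DUSP14 was lowest of all retinas in control replicate 3, at 3.87, and its r with the score of -0.59 became -0.21 without it. The 13 kinases and inducers upstream of FOS and EGR1 had a median r of 0.05 (-0.01 without control replicate 3). Among them MAPK8, the JNK1 kinase, had -0.51 (-0.35) and RPS6KA3, the RSK2 kinase, had -0.43 (-0.16). The lowest MAPK8 value, 1.40, lay under the filter level.

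Of the genes around CEBPD, STAT3 had the highest r. It had r = 0.71 with the score and 0.56 with CEBPD, and 0.27 with the score without control replicate 3. The 9 tested genes of the list had a median r of 0.24, and 0.06 without that retina. CEBPB, SOCS3, IL6 and LIF, which act beside CEBPD in the acute phase response, lay under the filter. With CEBPD, STAT3 had -0.058 without that retina. JAK1 had r = 0.24 (0.14 without control replicate 3) and JAK2 0.31 (-0.17, with the sign turned) with the score, and CEBPG, a dimer partner without an activation domain, had -0.31.

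Glucocorticoid response genes and heat shock proteins had a median r near 0 over 18 retinas, and that of the heat shock proteins was lower without control replicate 3. The 12 glucocorticoid genes had a median r of 0.04 (0.01 without that retina), with FKBP5, a receptor chaperone induced by the hormone, at 0.05 (-0.16) and MT1A, a metallothionein, at 0.31 (0.13). The 22 heat shock genes had a median of 0.03 and of -0.14 without it, where those of all genes were -0.03 and -0.02, and their mean went from an r of 0.00 to -0.37. CRYAB had 0.53, but 0.14 without control replicate 3, and HSPE1, the mitochondrial co-chaperonin, had -0.43. The mean of the 17 interferon genes had r = 0.07 with the score (-0.14 without control replicate 3), and control replicate 3 ranked 4th in it.

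**Figure D4:**
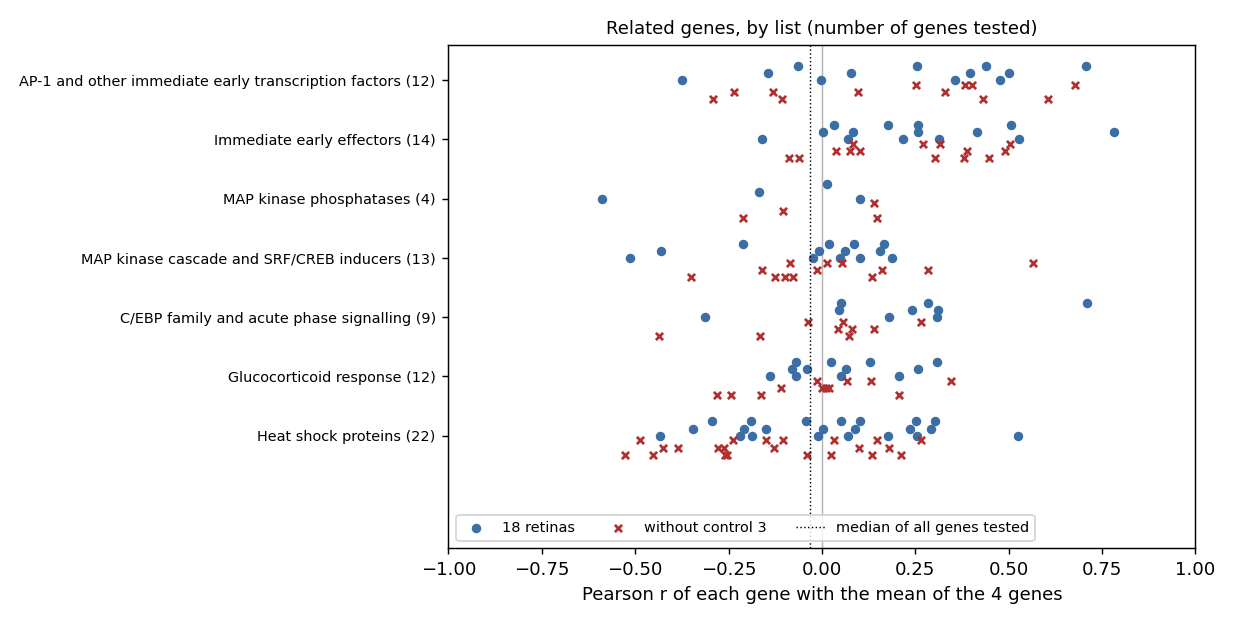
Each point is 1 gene tested, placed on the horizontal axis by its Pearson r with the mean of the 4 members; blue circles use 18 retinas and red crosses 17, without control replicate 3. The early transcription factors and effectors lie mostly right of the median of all genes (dotted, -0.03), with medians of 0.31 and 0.24, while heat shock proteins spread on both sides with a median of 0.03 (crosses -0.14).

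None of the 4 genes differed between the diets beyond the spread of the retinas. With limma on all 16799 tested probe sets and Benjamini-Hochberg adjustment, 0 probe sets (0%) passed an adjusted p of 0.05. An unadjusted p under 0.05 was found for 1059 (6.3%), of which 494 had the higher mean with sialyllactose and 565 the lower, and for 0 of the 4 members. When each array was centred on its median this split was 790 higher and 342 lower. The labels do not name litters, so the p-values measure the spread between these retinas.

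FOS and EGR1 had nearly equal means in both diets, with intervals of nearly 0.8 on either side. The difference, sialyllactose minus control on the log2 scale, was 0.06 for FOS (95% interval -0.71 to 0.84, limma adjusted p = 0.993) and 0.01 for EGR1 (-0.77 to 0.80, adjusted p = 0.999). Diet accounted for 0.14% of the variance of FOS and 0.01% of that of EGR1, against 9.4% for DUSP1 and 16.1% for CEBPD. The FOS difference was 0.32 without control replicate 3 and -0.11 without sialyllactose replicate 3. That of EGR1 ran from -0.18 without sialyllactose replicate 9 to 0.17 without sialyllactose replicate 6, so the sign of both depended on single retinas.

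DUSP1 and CEBPD had lower means with sialyllactose, and the gap was smaller without control replicate 3. The DUSP1 difference was -0.12 (95% interval -0.31 to 0.06, limma adjusted p = 0.858) and -0.05 without that retina. For CEBPD it was -0.35 (-0.73 to 0.02, adjusted p = 0.783, unadjusted p = 0.062) and -0.20 without it. Leaving out control replicate 2, 4 or 8 or sialyllactose replicate 4 or 8 moved CEBPD the other way, to between -0.43 and -0.40, with unadjusted limma p-values of 0.025 to 0.043 and adjusted ones of 0.753 to 0.877. The 2 dimmer CEBPD probe sets, in a fit without the filter, had differences of 0.06 and 0.13, opposite in sign to the brightest.

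No related gene passed the adjusted threshold for diet. Of the early transcription factors 7 of 12 had higher means with sialyllactose, of the early effectors 10 of 14, of the phosphatases 3 of 4, of the kinases 6 of 13, of the CEBPD list 4 of 9, of the glucocorticoid list 4 of 12 and of the heat shock list 10 of 22, against 2472 of all 5710 genes. At an unadjusted limma p under 0.05 were 7 genes of these lists, where 321 of all 5710 genes were. Higher means with sialyllactose were measured for ARAF, a MAP kinase cascade kinase (0.27, unadjusted p = 0.000902, adjusted p = 0.691), CEBPA (0.17), TNF (0.18), ANGPTL4 (0.19) and GADD45A (0.19). Lower means were measured for MT3, a metallothionein (-0.28, unadjusted p = 0.00339), and CRYAB (-0.44, unadjusted p = 0.0144). The median differences lay between -0.05 and 0.05, with -0.01 for all genes.

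**Figure D5:**
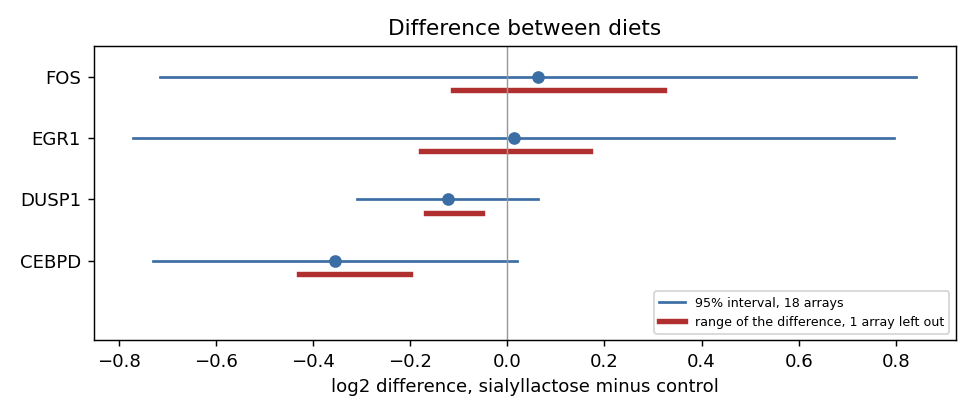
Difference in log2 RMA value, sialyllactose minus control (horizontal axis), for each of the 4 genes: the blue point and line are the limma difference and its 95% interval over 18 arrays, and the red bar is the range of the difference when 1 array is left out. The 4 intervals drawn include 0, and leaving out 1 array moves CEBPD between -0.43 and -0.20 and FOS between -0.11 and 0.32.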

How the data were processed

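The authors deposited log2 values, 1 for each probe set on each array. The submitters' processing notes name RMA and the Affymetrix Expression Console, with settings not given in the sources used here. RMA in general gives all arrays 1 distribution and shrinks differences of dim probe sets, and it has no detection call. Of 24123 probe sets, 124 control probe sets and then the 30% of the rest with the lowest mean (7200) were left out, which left 16799. Symbols were taken from the annotation of the platform, where 10099 probe sets had 1 symbol, 198 several and 13826 none; 9989 of those with 1 symbol were found in a RefSeq gene table. The 5710 genes tested were each represented by their brightest probe set. Depth does not apply to arrays, and the number of arrays limits the precision.

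Diets were compared with limma 3.58.1 in R 4.3.3 (lmFit and eBayes, 9 arrays per diet, no covariate, two-sided). The step was tested on simulated data. Correlations were computed on deviations from the diet mean. The members and lists were chosen with earlier results of these data known. Genes were named by a rule: the members, per member the 5 genes with the highest and 3 with the most negative r in both diets, 12 and 8 for the score, and up to 4 per list by the size of r, beside a few defining markers. The labels do not explain the replicate numbers, and whether they pair the retinas was not settled. Over 9 pairs the correlations of deviations ran from -0.11 to 0.16, and 3 were over 0.1. In 3 of the 9 the sialyllactose retina most like the control retina had the same number. The 2 retinas of replicate 3 were highest for FOS and DUSP1, and the 2 of replicate 9 for EGR1. The alternatives tried were other filters, scalings, variance models, array weights, probe set means, rank correlation, the replicate block and leaving out each array, and, added after the data were seen, list correlations without control replicate 3 and other probe sets of partners.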

Additional observations from a re-analysis of the deposited data

Results flagged for a closer look

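In 66 groups of 9 retinas tested, 8 had 1 retina set apart from the others by a gap that was large for the range of the group, where chance flags about 1 in 20 groups. Control replicate 3 was the retina in 4 of them. CEBPD, DUSP1 and the score built on the members were chosen for such values, so that rate does not apply to them and they are given as a description. The lists were chosen with earlier results of these data known, so the rate is not read for the list means either. Its CEBPD value was 3.45, against 1.62 to 2.40 in the other control retinas, its DUSP1 value was 6.26 against 5.50 to 5.71, its member score was 2.23 against -0.81 to 0.51, and its mean deviation over the microglia and immune genes was 0.55 against -0.21 to 0.11.

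In sialyllactose replicate 3 the difference between the 3' and 5' probe sets of EF1A was 1.61, against 1.04 to 1.32 in the other retinas of its group. In control replicate 2 the mean deviation of the bipolar, horizontal and amacrine genes was 0.23 against -0.09 to 0.06. In sialyllactose replicate 1 the mean deviation of the pigment epithelium genes was 0.33 against -0.13 to 0.08. In control replicate 1 the lens list, of which CRYBB1 alone was tested, deviated by 1.21 against -0.56 to 0.11.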

How the results depend on the processing

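No probe set passed the adjusted threshold in any fit run, and no member did. With 1 array left out, the diet difference ran from -0.11 to 0.32 for FOS, -0.18 to 0.17 for EGR1, -0.17 to -0.05 for DUSP1 and -0.43 to -0.20 for CEBPD. In the same way r ran from 0.61 to 0.72 for FOS with EGR1, 0.40 to 0.76 for FOS with DUSP1, -0.028 to 0.56 for FOS with CEBPD, -0.12 to 0.33 for EGR1 with DUSP1, -0.11 to 0.27 for EGR1 with CEBPD and -0.019 to 0.72 for DUSP1 with CEBPD. As Spearman's rho, FOS with DUSP1 was 0.36, FOS with CEBPD 0.18 and DUSP1 with CEBPD 0.23, and without the 2 farthest arrays r was 0.058, 0.10 and 0.20. Median differences of lists changed sign when arrays were centred on their medians, to 0.0027 for the MAP kinase cascade, 0.016 for the CEBPD list, 0.0037 for heat shock proteins and 0.0065 for all genes, and under quantile normalization, to 0.0049 for heat shock proteins, -0.013 for muscle and 0.00028 for all genes. Dim values such as those of CEBPD are limited by signal near the floor; the causes of these shifts were not tested.

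With the replicate number as a block, 0 probe sets passed the adjusted threshold and 1140 had an unadjusted limma p under 0.05, against 1059. With the mean of each replicate number removed, r was 0.80 for FOS with EGR1 and 0.20 for FOS with DUSP1. These r rest on 9 differences between retinas of the same number, a pairing that was not settled, and not on 18 separate retinas. Under the block the DUSP1 difference of -0.12 had a 95% interval of -0.24 to -0.0028, which leaves out 0. Its limma p was 0.0456 unadjusted, and its limma adjusted p = 0.730. The adjusted call of no member changed.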

Other observations

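Some related genes also varied widely between retinas of 1 diet. Among the glucocorticoid and heat shock genes tested, CRISPLD2, a secreted protein induced by the hormone, ranked 82nd of 5710 genes by its SD within diets (0.47), HSPA2, a heat shock protein, 109th (0.42) and CRYAB 130th (0.39). Their values ran from 2.93 to 4.94, 1.41 to 2.97 and 5.53 to 7.24. BTG2 and SGK1, both early genes, ranked 145th and 160th. By contrast JUN, the AP-1 partner of FOS, ranked 2308th, with values from 5.66 to 6.24.

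The clock genes ARNTL and PER1 had opposite signs of r with FOS. ARNTL had -0.78, and PER1 had 0.59 with EGR1 and 0.49 with FOS over 18 retinas, within a range of 6.23 to 6.68. Without control replicate 3, r with FOS was -0.83 for ARNTL and 0.38 for PER1. In the sialyllactose group the r of PER1 with the member score was 0.077. PER1 had a 2nd tested probe set, which was not read here. The pair of PER1 and ARNTL was picked out after its values were seen.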
